A study of Mus musculus with 12 samples.

Results

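The 4 arrays with tpa in their titles compare day 90 with day 50 in mouse RNA, with 1 array for each combination of day and genotype, out of 12 arrays in the whole study. The members were taken by title alone: 2 arrays titled 90d (1 labelled Eng+/-, heterozygous for the gene of endoglin, and 1 labelled wt) and 2 arrays titled 50d (1 labelled Eng+/- and 1 labelled wt). All 4 carry the word tpa, the other 8 carry either clp or no treatment name, and neither what tpa and clp stand for nor what the days count is given in the sources used here. Each array is an Agilent 2-colour oligonucleotide array with the sample in the Cy5 channel and, in Cy3, RNA pooled from all conditions, so a value is the log2 ratio of a sample to that pool. Each tpa array is the only one of its day and genotype, and its source is given as total RNA with no number of animals or cultures. The 4 lay on 1 slide, with both 90 d arrays at positions 1 and 2 and both 50 d arrays at positions 3 and 4, so day and position on the slide cannot be told apart.

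As background, a hair follicle is a small organ of the skin that alternates between growth and rest. During growth, dividing matrix cells at its base form the hair shaft, built of shaft keratins embedded in keratin-associated proteins, and the inner root sheath that moulds the shaft, while melanocytes beside the matrix hand pigment to it. Signals of the Wnt, Hedgehog and Bmp families regulate this cycle, and endoglin, the product of Eng, is a co-receptor for ligands of the Bmp and Tgf-beta family that is best known from blood vessel cells.

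The labels name E14 embryonic stem cells as the material, while the series title speaks of the hair follicle. Of 16 embryonic stem cell genes, Pou5f1 and Zfp42 were not well above background on any of the 4 tpa arrays. Sox2 was on 3, and the other 13, Nanog among them, were on all 4. All 26 tested genes of the interfollicular epidermis (keratinocytes of the skin surface) were well above background on all 4. So were all 22 tested fibroblast and matrix genes and all 22 tested skeletal muscle genes. Tested genes had already been filtered for Cy5 above background on 2 or more of 12 arrays. Of all 25087 features tested, 23127 were well above background on both 90 d arrays and 23805 on both 50 d arrays. The whole series had Cy5 medians of 153 to 502.5 scanner units, and the tpa arrays had medians of 492 (Eng+/-) and 427 (wt) at 90 d, against 372.5 (Eng+/-) and 360 (wt) at 50 d. Eng itself had log2 ratios of -0.38 (Eng+/-) and 0.79 (wt) at 90 d, against -0.49 (Eng+/-) and -1.13 (wt) at 50 d. At 50 d the level was therefore higher on the array labelled Eng+/- than on the array labelled wt, against the label, so genotypes are given below only as the arrays are labelled. The day difference of Eng was 1.02 ± 0.46 (SE; limma, n = 2 arrays a day, adjusted p = 0.915), and the 2 arrays of 90 d lay above both arrays of 50 d.

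With tpa, transcripts of hair structure genes were at higher levels at 90 d than at 50 d. Of 25087 genes and unnamed transcripts tested, 283 (1.13%) were at least 2-fold higher at 90 d in both genotype pairs and 3 (0.012%) at least 2-fold lower. Of the 283, 55 belonged to 3 lists of hair structure genes with 11, 37 and 13 tested members, and most belonged to none of these. The follicle stem cell and dermal papilla lists both had a median difference of 0.12. In them, 1 of 18 and 2 of 16 genes were at least 2-fold higher in both pairs. With the authors' own processed signals the counts were 476 higher and 159 lower. Both 90 d arrays lay above both 50 d arrays for 6564 features (26.2%) and below both for 5701 (22.7%). In RNA from bulk samples, more cells of a type and more RNA per cell cannot be told apart.

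No feature passed the test in the model of all 12 arrays. limma with a genotype term and 6 combinations of treatment and day called 0 of 25087 features (0%) at an adjusted p under 0.05; the smallest adjusted p was 0.584, and 1386 features had an unadjusted p under 0.05, 972 of them higher and 414 lower at 90 d. The same test on the 4 tpa arrays alone, with 1 residual degree of freedom, called 324 features higher (1.29%) and 82 lower (0.327%), and 181 of these 406 were among the 283. The count of the 12-array model also moved with single arrays: it was 22 without the Eng+/- 90d array of no named treatment, all 22 higher and all among the 283, 13 without the wt 90d array of no named treatment, and 1, 13, 3 and 0 without the tpa Eng+/- 90d, wt 90d, Eng+/- 50d and wt 50d arrays. With 2 arrays against 2, an exact two-sided permutation test of a single gene that ignores the genotype pairs cannot give a p below 0.333. A test within the genotype pairs has fewer arrangements, so its limit is higher.

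**Figure D1:**
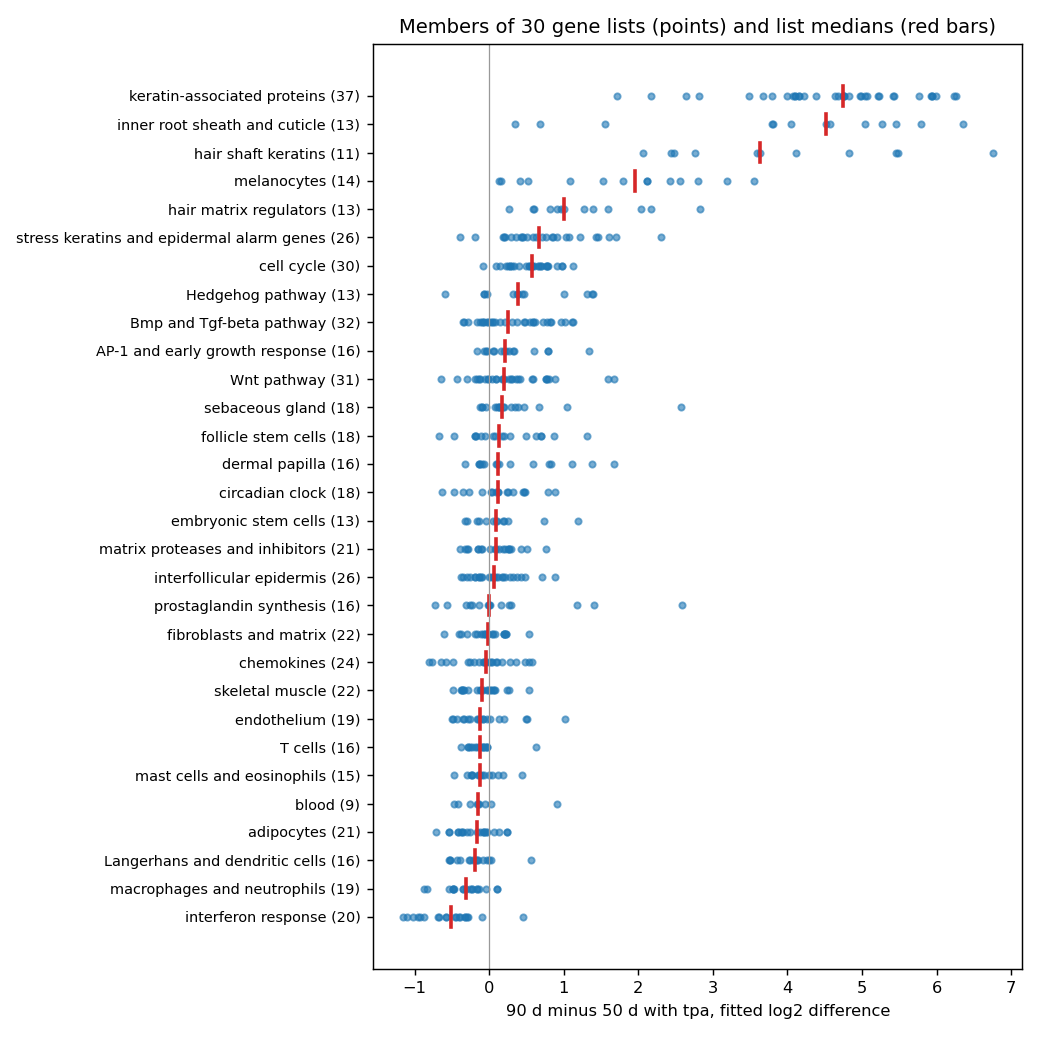
Fitted 90 d minus 50 d difference with tpa (x axis, log2 ratio) of each tested member (points) of 30 gene lists (rows, number of members in brackets), with the list median as a red bar. Keratin-associated proteins, inner root sheath genes and hair shaft keratins lie at medians of 4.75, 4.52 and 3.63, while interferon response genes lie at -0.52.

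Genes of the inner root sheath were among the most different. Of 13 tested genes of this sheath and the hair cuticle, 10 were at least 2-fold higher at 90 d in both pairs (background 1.13%), and the median difference was 4.52, against 0.01 over all features, and 2.91 without the tpa wt 50d array. Over the 5 members without a saturated spot the median was 0.99 in the Eng+/- pair and 2.11 in the wt pair, against 3.38 (Eng+/-) and 4.95 (wt) over all 13. Krt27, a type I keratin of the sheath, had log2 ratios of 0.50 (Eng+/-) and 1.02 (wt) at 90 d, against -4.86 (Eng+/-) and -6.34 (wt) at 50 d. Its Cy5 signal was at the scanner ceiling of 65529 units on both 90 d arrays, against 3718 (Eng+/-) and 939 (wt) at 50 d, which lowers the fitted difference of 6.36 ± 1.96 (SE, limma adjusted p = 0.725). Its Cy3 pool signal was 9818 (Eng+/-) and 6496 (wt) units at 90 d, against 15114 (Eng+/-) and 11755 (wt) at 50 d, which raises it, and with Cy5 alone the difference was 5.27. Krt25, a neighbouring type I keratin, had -1.13 (Eng+/-) and -0.62 (wt) at 90 d, against -6.36 (Eng+/-) and -6.98 (wt) at 50 d, a difference of 5.79 ± 1.62. The 2 days did not overlap for either keratin, and both genotypes' arrays were low at 50 d. Tchh, trichohyalin, the granule protein that hardens the sheath, differed by 5.04 ± 1.67, and Padi3, the peptidylarginine deiminase that modifies trichohyalin, by 5.27 ± 1.51, with no saturated spot for Padi3. Krt72 was the sheath member with overlapping days, at -0.72 (Eng+/-) and 0.18 (wt) at 90 d, against -0.55 (Eng+/-) and -0.69 (wt) at 50 d.

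The promoters of 2 of these keratins are shown because a TATA box was frequent among the promoters of the hair structure lists. The stretches run from 100 bases before to 50 bases after the RefSeq transcription start (build GRCm38.p6, minus strand, chr11:99322902-99323051 for Krt25 and chr11:99374854-99375003 for Krt28), and capitals mark TATAAA, which begins 30 bases before the start in both.
Krt25: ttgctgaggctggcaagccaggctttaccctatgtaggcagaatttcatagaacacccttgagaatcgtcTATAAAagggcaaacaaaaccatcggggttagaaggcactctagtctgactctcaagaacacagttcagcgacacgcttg
Krt28: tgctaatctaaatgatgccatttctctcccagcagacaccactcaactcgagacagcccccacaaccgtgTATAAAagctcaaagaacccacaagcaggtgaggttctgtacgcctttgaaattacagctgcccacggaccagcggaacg
TATAAA, searched on both strands, was present in 7 of 13 sheath and cuticle promoters of 300 bases, against 13.6% of all 32851 promoters in the RefSeq table, and it overlaps neither of the other motifs searched. It was also present in 11 of 21 promoters of the stress keratins and alarm genes given further on. A high share is thus not particular to the hair structure lists. A match describes the letters of the window and is not a measured binding site.

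The shaft itself showed the same direction. All 11 tested hair shaft keratins lay higher on both 90 d arrays than on both 50 d arrays (background 26.2%), 10 of them at least 2-fold in both pairs (background 1.13%), with a median difference of 3.63. Over the 4 without a saturated spot the median was 1.33 in the Eng+/- pair and 3.46 in the wt pair, against 2.68 (Eng+/-) and 5.01 (wt) over all 11. Krt35, a type I keratin of the lower shaft, had log2 ratios of -0.51 (Eng+/-) and 0.30 (wt) at 90 d, against -4.91 (Eng+/-) and -4.95 (wt) at 50 d. Krt33a, a type I keratin of the shaft cortex, had -1.29 (Eng+/-) and 0.70 (wt) at 90 d, against -5.75 (Eng+/-) and -8.35 (wt) at 50 d, a difference of 6.76 ± 2.49 (SE, limma adjusted p = 0.809). The wt 90 d Cy5 spot of Krt33a was saturated. Its Cy3 pool signal was 18458 (Eng+/-) and 8495 (wt) units at 90 d, against 24599 (Eng+/-) and 25948.5 (wt) at 50 d. With Cy5 alone the difference of Krt33a was 4.81. Krt84 was the only shaft keratin under 2-fold in a pair, with -3.82 (Eng+/-) and -0.79 (wt) at 90 d, against -4.80 (Eng+/-) and -4.67 (wt) at 50 d. The wt pair gave the larger difference for 11 of 11 shaft keratins, against 10516 of all 25087 features.

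Keratin-associated proteins, the cysteine- or glycine-rich proteins that cross-link the shaft keratins, had the largest median of the 30 lists. Of 37 tested members, 35 were at least 2-fold higher at 90 d in both pairs (background 1.13%) and all 37 were higher on both 90 d arrays than on both 50 d arrays (background 26.2%), with differences of 1.72 to 6.26 and a median of 4.75, or 2.93 without the tpa wt 50d array. Krtap17-1 had log2 ratios of -1.14 (Eng+/-) and 0.66 (wt) at 90 d, against -5.71 (Eng+/-) and -6.66 (wt) at 50 d. Krtap9-3 had -2.49 (Eng+/-) and 0.08 (wt) at 90 d, against -6.54 (Eng+/-) and -8.39 (wt) at 50 d. Krtap4-2, with no saturated spot, had -2.60 (Eng+/-) and -0.32 (wt) at 90 d, against -7.13 (Eng+/-) and -7.33 (wt) at 50 d, which is 23.0-fold in the Eng+/- pair and 129-fold in the wt pair. These genes are near copies of one another, and a probe may read more than 1 of them: the 4 probes of Krtap5-5 gave differences of -0.06 to 5.99. A Cy5 spot was saturated for 23 of the 37, and over the 14 without a saturated spot the median difference was 2.34 in the Eng+/- pair and 5.57 in the wt pair.

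Promoters of 2 members of this family are shown for the same element, which begins 31 bases before the start of Krtap17-1 and 30 bases before that of Krtap9-3 (GRCm38.p6, minus strand, chr11:99993945-99994094 and chr11:99598057-99598206; 100 bases before to 50 after the start, TATAAA in capitals).
Krtap17-1: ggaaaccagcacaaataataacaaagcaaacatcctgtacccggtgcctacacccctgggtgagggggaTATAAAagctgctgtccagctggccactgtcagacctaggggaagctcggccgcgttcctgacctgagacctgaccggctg
Krtap9-3: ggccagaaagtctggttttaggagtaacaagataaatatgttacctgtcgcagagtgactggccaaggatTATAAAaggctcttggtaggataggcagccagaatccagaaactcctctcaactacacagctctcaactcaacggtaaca
Of the keratin-associated promoters in the table, 26 of 33 held TATAAA, as did 5 of 7 shaft keratin promoters, against 13.6% of all promoters. CTTTGAA, a core bound by Lef1 and its relatives and searched on both strands, was present in 9 of 33 keratin-associated and 4 of 7 shaft keratin promoters, against 5.14% of all. Over the 163 promoters found for the 283 features the shares were 46.0% for TATAAA and 14.1% for CTTTGAA.

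Part of the genes at least 2-fold higher lay in clusters. Of 200 of them placed in RefSeq gene order, 79 stood next to another one with no other tested protein-coding gene between, in 14 runs, and 121 stood in none. The longest run held 18 neighbours, starting at Krtap4-16 and ending at Krt36, and 5 runs of 5 or more neighbours held 59 genes, all of them keratins, keratin-associated proteins or predicted genes between these. Probes of neighbouring family members may cross-hybridise, as above, so neighbours are not independent measurements.

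**Figure D2:**
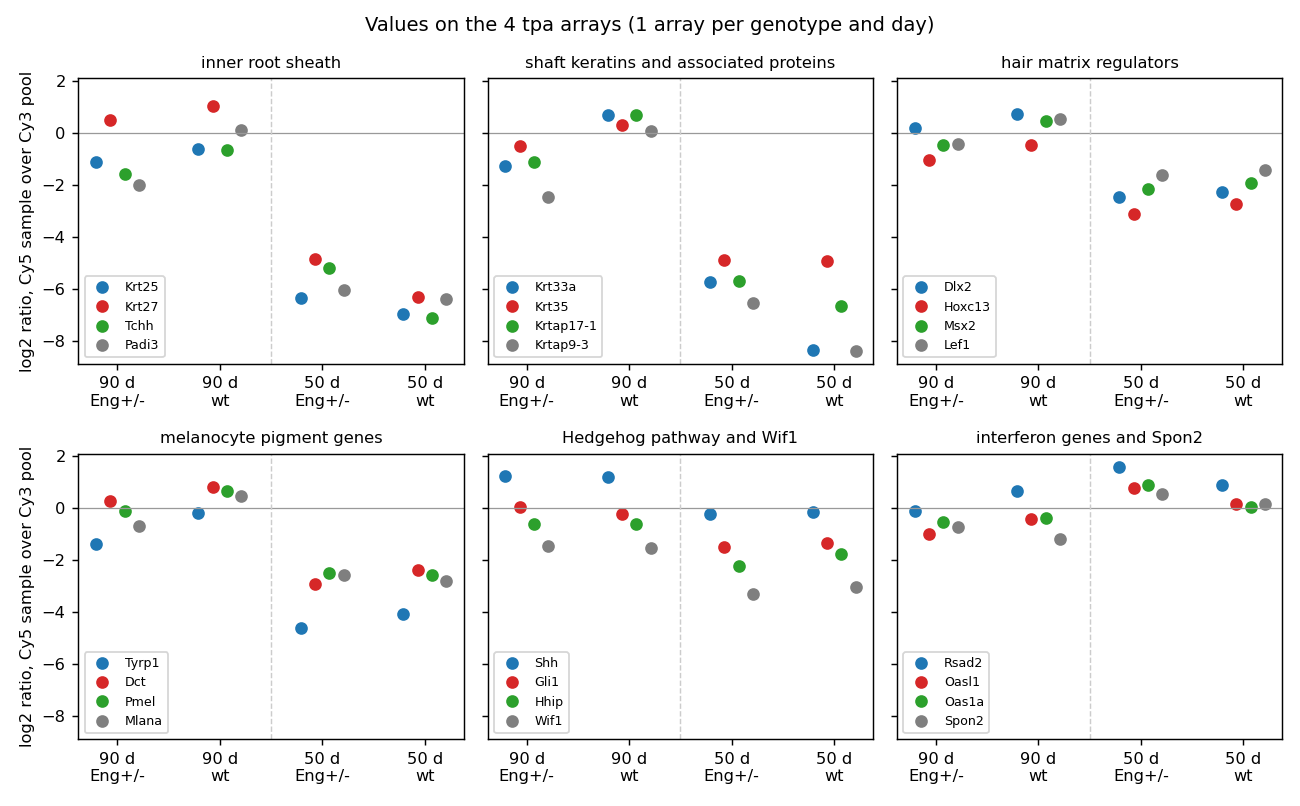
Log2 ratio of sample over pool (y axis) on the 4 tpa arrays (x axis, 90 d left and 50 d right of the dashed line, 1 point per gene and array) for 24 genes in 6 groups. The 20 genes of the follicle and pigment panels lie higher on both 90 d arrays than on both 50 d arrays, and the interferon genes and Spon2 lie lower, by less.

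Outside the lists, further genes with large differences in both pairs are described here, and they were not the only ones. The predicted gene Gm11568, from the longest run of neighbours above, had the largest difference of all features, at 6.79 ± 1.93 (SE). Its pair differences were 4.98 (Eng+/-) and 8.59 (wt). Fbp1, fructose-1,6-bisphosphatase, an enzyme of gluconeogenesis, had log2 ratios of -0.57 (Eng+/-) and 0.84 (wt) at 90 d, against -5.73 (Eng+/-) and -5.72 (wt) at 50 d. Its difference of 5.86 ± 1.20 (SE) shared the smallest adjusted p of the 12-array model (limma, 0.584) and rested on unsaturated spots. Gjb2, connexin 26, a gap junction protein, had -0.02 (Eng+/-) and 1.07 (wt) at 90 d, against -4.40 (Eng+/-) and -4.30 (wt) at 50 d. Vsig8, a membrane protein of the immunoglobulin superfamily, differed by 5.57 ± 1.73. Vsig8 had log2 ratios of -1.46 (Eng+/-) and 0.32 (wt) at 90 d, against -5.69 (Eng+/-) and -6.58 (wt) at 50 d. For Fbp1, Gjb2 and Vsig8 the 50 d arrays lay far below the 90 d arrays, and for Fbp1 and Gjb2 the 50 d arrays lay close together. The wt 90 d spots of Gjb2 and Vsig8 were saturated.

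Regulators of the hair matrix were higher at 90 d by less than the structural genes. All 13 tested lay higher on both 90 d arrays than on both 50 d arrays (background 26.2%), 5 of them at least 2-fold in both pairs (background 1.13%), with a median difference of 1.00. Dlx2, a homeobox factor, had log2 ratios of 0.18 (Eng+/-) and 0.72 (wt) at 90 d, against -2.46 (Eng+/-) and -2.29 (wt) at 50 d. Hoxc13, a homeobox factor needed for shaft keratin expression, had -1.03 (Eng+/-) and -0.46 (wt) at 90 d, against -3.11 (Eng+/-) and -2.73 (wt) at 50 d. Both factors separated the days by more than the arrays of a day differed. Lef1, the Wnt-responsive factor of matrix and shaft precursors, had -0.42 (Eng+/-) and 0.51 (wt) at 90 d, against -1.64 (Eng+/-) and -1.45 (wt) at 50 d, a difference of 1.59 ± 0.25 (SE, limma adjusted p = 0.584). Msx2, another homeobox factor of the matrix, differed by 2.04 ± 0.61, while Msx1 differed by 0.60 ± 0.15 and Prdm1 by 0.27 ± 0.13.

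In the Hedgehog pathway the ligand and 2 of its targets were higher at 90 d. Shh, the ligand made in the growing follicle, had log2 ratios of 1.23 (Eng+/-) and 1.19 (wt) at 90 d, against -0.21 (Eng+/-) and -0.15 (wt) at 50 d and was not well above background at 50 d. Its Cy5 signals were 521 (Eng+/-) and 396 (wt) units at 90 d, against 65.6 (Eng+/-) and 68.0 (wt) at 50 d, and the day difference was 1.39 ± 0.42 as a ratio and 1.83 with Cy5 alone. Gli1, a transcription factor and target of the pathway, had 0.04 (Eng+/-) and -0.20 (wt) at 90 d, against -1.47 (Eng+/-) and -1.33 (wt) at 50 d. Hhip, a target that binds the ligand and limits it, had -0.61 (Eng+/-) and -0.60 (wt) at 90 d, against -2.21 (Eng+/-) and -1.77 (wt) at 50 d. These 3 were 2-fold higher in both pairs, and 8 of the 13 pathway genes tested lay higher and 3 lower on both 90 d arrays (backgrounds 26.2% and 22.7%). Gli3 differed by 1.00 ± 0.27, and Ptch1, the receptor, by 0.32 ± 0.32.

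Of 31 Wnt pathway genes, 16 lay higher and 4 lower on both 90 d arrays (backgrounds 26.2% and 22.7%), with a median difference of 0.20, and only Lef1 and Wif1 were 2-fold higher in both pairs. Wif1, a secreted Wnt inhibitor, had log2 ratios of -1.44 (Eng+/-) and -1.53 (wt) at 90 d, against -3.30 (Eng+/-) and -3.02 (wt) at 50 d. Wnt5a, a ligand, differed by 0.88 ± 0.30 and Rspo2, an amplifier of Wnt signals, by 0.81 ± 0.31. In the Bmp and Tgf-beta pathway, 15 of 32 genes lay higher and 5 lower on both 90 d arrays (same backgrounds), none 2-fold in both pairs, with a median of 0.25. Smad7, an inhibitor of the pathway, had -0.24 (Eng+/-) and 0.12 (wt) at 90 d, against -1.16 (Eng+/-) and -1.21 (wt) at 50 d.

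Most melanocyte genes were higher at 90 d. Of 14 tested, 13 lay higher on both 90 d arrays than on both 50 d arrays (background 26.2%) and 9 were at least 2-fold higher in both pairs (background 1.13%), with a median difference of 1.95. Tyrp1, a melanosomal enzyme, had log2 ratios of -1.37 (Eng+/-) and -0.19 (wt) at 90 d, against -4.60 (Eng+/-) and -4.06 (wt) at 50 d. Dct, dopachrome tautomerase, had 0.28 (Eng+/-) and 0.82 (wt) at 90 d, against -2.92 (Eng+/-) and -2.37 (wt) at 50 d, 9.16-fold in the Eng+/- pair and 9.15-fold in the wt pair. The wt 90 d spot of Dct was saturated, so its Cy5 value there is only a lower limit, while the Cy3 signal also enters the wt fold. Pmel, the fibril protein of melanosomes, differed by 2.80 ± 0.45 (SE, limma adjusted p = 0.584), and Mlana, another melanosome protein, by 2.56 ± 0.43. Tyr, tyrosinase, the rate-limiting pigment enzyme, differed by 1.09 ± 0.31 (0.27 by its other probe), with 1.70-fold in the Eng+/- pair and 2.66-fold in the wt pair. Oca2, a melanosomal ion channel, was not well above background at 50 d, where its ratio holds only a bound, and differed by 2.42 ± 0.53. Smaller differences were measured for 3 genes of the melanocyte lineage, Mitf by 0.13 ± 0.17, with a sign that turned under median centring and with Cy5 alone, Sox10 by 0.15 ± 0.16, with a sign that turned with Cy5 alone, and Kit by 0.41 ± 0.16.

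Promoters of 2 pigment genes are shown because they hold the M-box core TCATGTG, the element to which Mitf, the master regulator of melanocytes, is known to bind. Capitals mark TCATGTG or its reverse complement, which contains an E-box (CANNTG). The Tyrp1 stretch runs from 100 bases before to 50 after the start (GRCm38.p6, plus strand, chr4:80834113-80834262), with the core 47 bases before it, and the Dct stretch from 250 bases before to 50 after (minus strand, chr14:118052197-118052496), with cores beginning 232 and 151 bases before it.
Tyrp1: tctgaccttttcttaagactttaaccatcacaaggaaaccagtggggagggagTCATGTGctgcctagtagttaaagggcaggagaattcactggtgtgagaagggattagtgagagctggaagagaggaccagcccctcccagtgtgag
Dct: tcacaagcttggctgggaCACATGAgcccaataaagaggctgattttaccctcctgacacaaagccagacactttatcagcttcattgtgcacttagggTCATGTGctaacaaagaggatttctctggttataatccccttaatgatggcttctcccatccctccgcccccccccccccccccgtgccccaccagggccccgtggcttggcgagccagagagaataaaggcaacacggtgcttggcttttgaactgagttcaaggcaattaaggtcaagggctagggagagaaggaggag
The core, searched on both strands, was present in 6 of 9 melanocyte promoters in the table, against 3.77% of all promoters and 11 of the 163 found for the 283 features. TATAAA was present in 1 of those 9.

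Genes of dividing cells were higher at 90 d by a smaller step. Of 30 cell cycle genes, 28 lay higher on both 90 d arrays and none lower (backgrounds 26.2% and 22.7%), none was 2-fold higher in both pairs, and the median difference was 0.57. Mki67, the proliferation marker, had log2 ratios of 1.01 (Eng+/-) and 1.19 (wt) at 90 d, against 0.18 (Eng+/-) and 0.21 (wt) at 50 d. Ube2c, a mitotic ubiquitin-conjugating enzyme, differed by 1.13 ± 0.46 and Plk1, a mitotic kinase, by 0.97 ± 0.29. Among the early response genes, Egr1, an early growth response factor, had 1.28 (Eng+/-) and 1.68 (wt) at 90 d, against -0.11 (Eng+/-) and 0.39 (wt) at 50 d, and was the only one of 16 to be 2-fold higher in both pairs. Fos differed by 0.79 ± 0.26.

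Stress keratins and alarm genes, which keratinocytes make when the epidermis is irritated or wounded and some of which the follicle also makes, were mostly higher at 90 d. Of 26 tested, 22 lay higher and 1 lower on both 90 d arrays (backgrounds 26.2% and 22.7%), 7 were 2-fold higher in both pairs (background 1.13%), and the median was 0.67. Krt6b, an injury-induced keratin that the follicle also makes, had log2 ratios of 0.31 (Eng+/-) and 1.41 (wt) at 90 d, against -1.998 (Eng+/-) and -0.87 (wt) at 50 d, although its 2 probes differed, at 1.05 and 2.30. S100a8, a calcium-binding alarm protein of neutrophils and irritated epidermis, had -0.56 (Eng+/-) and -0.69 (wt) at 90 d, against -2.12 (Eng+/-) and -2.33 (wt) at 50 d, and its partner S100a9 differed by 1.43 ± 0.75. Both partners were low on both 50 d arrays. Krt16 differed by 1.02 ± 0.47, Stfa1, a cysteine protease inhibitor, by 1.69 ± 0.90, Sprr1b, a cornified envelope protein, by 1.45 ± 0.73, and Krt6a by 0.50 ± 0.44.

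Genes of the keratinocytes of the skin surface were near the background. Of 26 interfollicular epidermis genes, 6 lay higher and 5 lower on both 90 d arrays (backgrounds 26.2% and 22.7%), none was 2-fold different in both pairs, and the median was 0.06. Krt14, the keratin of basal cells, had log2 ratios of 0.47 (Eng+/-) and 1.02 (wt) at 90 d, against 0.31 (Eng+/-) and 0.57 (wt) at 50 d, with overlap between the days, and its partner Krt5 differed by 0.17 ± 0.27; the sign of both turned with the processing, for Krt14 with Cy5 alone and for Krt5 under median centring. Casp14, a protease of cornification, differed by 0.88 ± 0.38, and Krt77 by -0.37 ± 0.23.

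A few enzymes of lipid metabolism were at least 2-fold higher in both pairs and larger in the wt pair. Pla2g10, a secreted phospholipase that releases arachidonic acid, had log2 ratios of -0.47 (Eng+/-) and 1.58 (wt) at 90 d, against -2.10 (Eng+/-) and -1.96 (wt) at 50 d. Fads2, a fatty acid desaturase, had -2.001 (Eng+/-) and -0.33 (wt) at 90 d, against -3.74 (Eng+/-) and -3.73 (wt) at 50 d. Ptgds, prostaglandin D synthase, had -1.48 (Eng+/-) and -0.60 (wt) at 90 d, against -2.62 (Eng+/-) and -2.27 (wt) at 50 d. In each case the 50 d arrays were nearly equal and the wt 90 d array was highest. The lists they came from did not share the direction: 6 of 16 prostaglandin synthesis genes lay higher and 5 lower on both 90 d arrays (backgrounds 26.2% and 22.7%), with Ptgs1, cyclooxygenase 1, differing by -0.73 ± 0.50, and Fads2 was the only 1 of 18 sebaceous gland genes 2-fold higher in both pairs.

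Interferon response genes were lower at 90 d. Of 20 tested, 16 lay lower and 1 higher on both 90 d arrays (backgrounds 22.7% and 26.2%), the median difference was -0.52, or -0.31 without the tpa Eng+/- 50d array, and none was 2-fold lower in both pairs. Oasl1, an antiviral gene of the oligoadenylate synthetase family, had log2 ratios of -0.998 (Eng+/-) and -0.40 (wt) at 90 d, against 0.77 (Eng+/-) and 0.16 (wt) at 50 d. Rsad2, the antiviral enzyme viperin, had -0.11 (Eng+/-) and 0.66 (wt) at 90 d, against 1.59 (Eng+/-) and 0.88 (wt) at 50 d. The array labelled Eng+/- of 50 d was the highest of the 4 for both, and the list's median was -0.78 in the Eng+/- pair and -0.25 in the wt pair. Oas1a, another synthetase, differed by -0.92 ± 0.37, whereas Cxcl10, an interferon-induced chemokine, was the member that lay higher, by 0.45 ± 0.27.

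Several lists of immune cells had medians below 0, as had some lists of other tissues given further on. Of 19 macrophage and neutrophil genes, 12 lay lower and none higher on both 90 d arrays (backgrounds 22.7% and 26.2%), with a median of -0.31. Fcgr1, an Fc receptor of macrophages, differed by -0.87 ± 0.43, Adgre1, the macrophage marker F4/80, by -0.49 ± 0.27 and Cd209f, a lectin receptor, by -0.83 ± 0.33. Of 16 T cell genes, 10 lay lower and 1 higher, with a median of -0.12, and of 16 Langerhans and dendritic cell genes, 9 lay lower and 1 higher, with a median of -0.19 (same backgrounds). Of 24 chemokine genes, 6 lay lower and 2 higher on both 90 d arrays (same backgrounds), with a median of -0.05. Among them Ccl24 and Ccl6 differed by -0.80 ± 0.37 and -0.77 ± 0.42. With the 4 tpa arrays alone, only these 2 chemokines passed as lower (limma adjusted p = 0.0396 and 0.0367), against 0.327% of all features. The part of these cell types in the interferon difference was not tested.

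The 3 features at least 2-fold lower in both pairs belonged to none of the lists. Spon2, a secreted matrix protein, had log2 ratios of -0.73 (Eng+/-) and -1.18 (wt) at 90 d, against 0.56 (Eng+/-) and 0.15 (wt) at 50 d. Pgr, the progesterone receptor, differed by -1.41 ± 0.55, but its other probe gave -0.10. Ifitm6, an interferon-induced transmembrane family gene, had -0.87 (Eng+/-) and -1.32 (wt) at 90 d, against 0.17 (Eng+/-) and 0.09 (wt) at 50 d.

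The remaining lists had medians of -0.16 to 0.12, against 0.01 over all features. Of 21 adipocyte genes, 10 lay lower and 1 higher on both 90 d arrays (backgrounds 22.7% and 26.2%), with a median of -0.16. Of 19 endothelial genes, 7 lay lower and 3 higher, with a median of -0.12, and of 15 mast cell and eosinophil genes, 5 lay lower and 1 higher, with a median of -0.13. Of 22 skeletal muscle genes, 4 lay lower and none higher, with a median of -0.10. The medians were -0.15 for 9 blood genes, -0.02 for 22 fibroblast and matrix genes, 0.09 for 21 matrix proteases and inhibitors and 0.11 for 18 circadian clock genes. The 18 follicle stem cell genes had a median of 0.12, with 8 higher and 4 lower on both 90 d arrays, and the 16 dermal papilla genes, from the mesenchyme that instructs the follicle, a median of 0.12, with 9 higher and 3 lower. The 13 embryonic stem cell genes had a median of 0.09.

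The day difference was not equal in the 2 genotype pairs. Over the 283 features the median difference was 1.93 in the Eng+/- pair and 3.33 in the wt pair. Of the 283, 217 were larger in the wt pair, against 10516 of all 25087 features. At 90 d the same features had a median of -1.26 for Eng+/- minus wt, with 244 lower on the array labelled Eng+/-, while at 50 d the median was 0.03, with 157 higher on the array labelled Eng+/-. By these medians over the 283 features, the gap between the pairs lay between the 90 d arrays, with 1 array each and no test. This did not hold for every list. The keratin-associated proteins also differed at 50 d, with median log2 ratios of -5.18 (Eng+/-) and -6.01 (wt), against -2.19 (Eng+/-) and 0.26 (wt) at 90 d. The hair shaft keratins differed little at 50 d, at -4.80 (Eng+/-) and -4.67 (wt). The gap between the pairs was wide for the keratin-associated proteins, with median day differences of 3.09 (Eng+/-) and 6.17 (wt). It was narrow for the hair matrix regulators, with medians of 1.00 (Eng+/-) and 1.16 (wt), and for the cell cycle genes, with medians of 0.54 (Eng+/-) and 0.61 (wt). Over all features the log ratios of the 50 d arrays correlated at r = 0.973 and those of the 90 d arrays at 0.928, and of the 4 pairings across days the wt 90 d array had the lowest, at 0.838 and 0.811. These correlations run across features of arrays that share a slide and a pool, and are a description only.

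**Figure D3:**
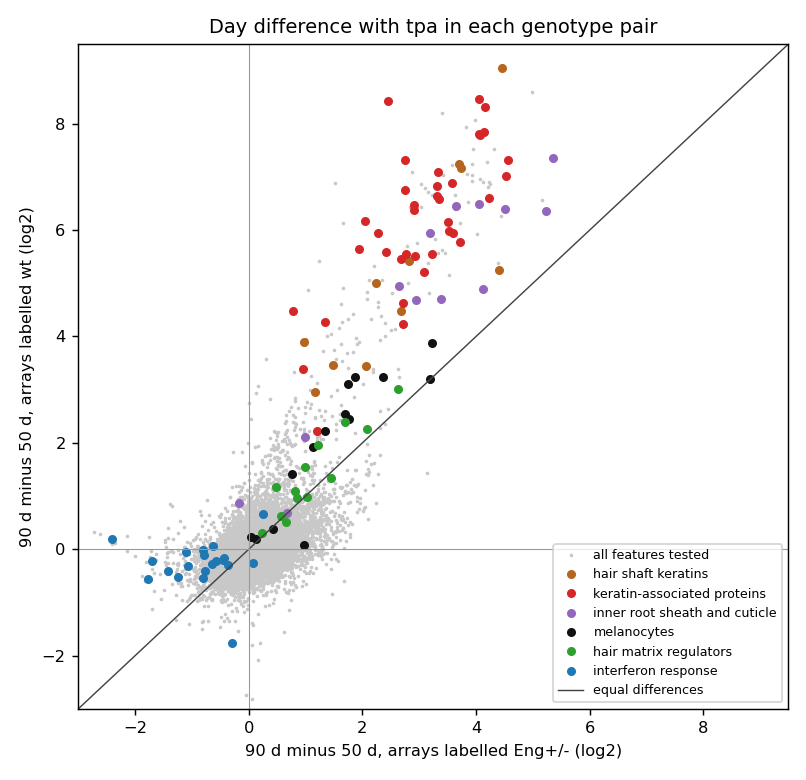
90 d minus 50 d log2 difference with tpa in the Eng+/- pair (x axis) and in the wt pair (y axis) for every feature tested (grey) and the members of 6 lists (colours); the line marks equal differences. Hair shaft keratins and keratin-associated proteins lie above the line, hair matrix regulators near it, and interferon genes mostly left of 0.

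Signal strength bounds these values. Of the 283 features, 273 were well above background on both 50 d arrays and 5 on neither, and 80 had a saturated Cy5 spot on at least 1 of the 4 arrays, where Cy5 has only a lower limit. The Cy3 pool should be the same on every array. The normalized Cy3 value also carries part of each array's loess correction. Its 90 d minus 50 d difference is therefore not one of the pool signal alone. Over the 283 that difference had a median of 0.06 but ran from -1.61 to 1.24, against a median of 0.12 over all features. The median was -0.40 for the 80 features with a saturated spot and 0.26 for the other 203. A negative Cy3 difference raises the ratio difference and a positive one lowers it. With Cy5 alone the median day difference was 3.08 for the hair shaft keratins, 3.68 for the keratin-associated proteins and 3.69 for the inner root sheath, against 3.63, 4.75 and 4.52 as ratios. How far the Cy3 difference enters the gap between the genotype pairs was not tested. For the hair matrix regulators the median normalized Cy3 difference was 0.61, against 0.12 over all features and a day difference in the ratio of 1.00.

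The same list was also measured on the other 8 arrays. The median log2 ratio of the keratin-associated proteins was -2.19 (Eng+/-) and 0.26 (wt) at 90 d with tpa, against -5.18 (Eng+/-) and -6.01 (wt) at 50 d with tpa. With clp it was -1.32 (Eng+/-) and 0.69 (wt) at 90 d, against 1.02 (Eng+/-) and 1.27 (wt) at 50 d. With no named treatment it was -6.96 (Eng+/-) and -0.62 (wt) at 90 d, against -3.63 (Eng+/-) and -1.27 (wt) at 50 d. The 50 d arrays with tpa and the Eng+/- 90 d array of no named treatment were thus the 3 lowest of the 12, and the 90 d arrays with tpa lay among the rest. The gap between that Eng+/- array and its wt partner enters the residual spread of the 12-array model.

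**Figure D4:**
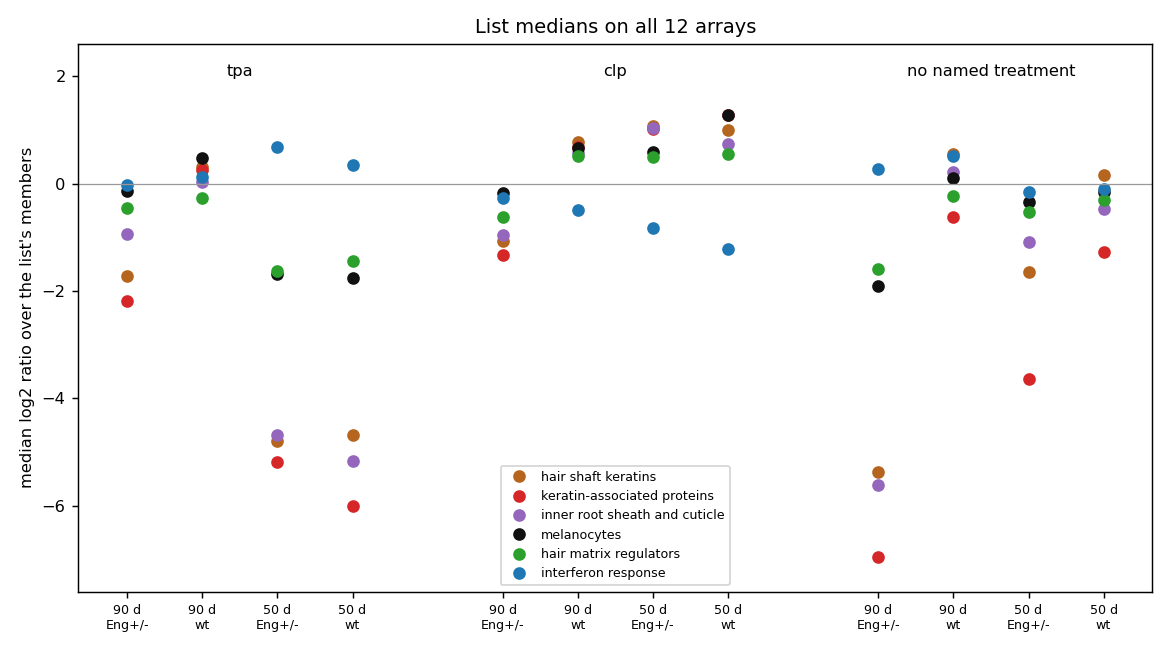
Median log2 ratio over the members of 6 gene lists (y axis) on each of the 12 arrays (x axis, by treatment, day and genotype label, 1 point per list and array). The hair lists lie lowest on both 50 d arrays with tpa and on 1 array without a named treatment (90 d, Eng+/-).

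Whether the day difference with tpa departed from that of the other treatments was tested by interaction terms of the 12-array model. limma called 0 of 25087 features (0%) against no named treatment, with a smallest adjusted p of 0.519 and 1920 at an unadjusted p under 0.05, and 0 (0%) against clp, with a smallest adjusted p of 0.150 and 3430 at an unadjusted p under 0.05. Without the wt 90d array of no named treatment the first count was 287, and without the Eng+/- 90d array of no named treatment the second was 38. Lef1 had the day difference of 1.59 with tpa, against -0.86 with clp, and an interaction of 2.45 ± 0.36 (SE, limma adjusted p = 0.150). Thbd, thrombomodulin of the vessel wall, had -0.68 with tpa, against 0.71 with no named treatment, an interaction of -1.39 ± 0.19 (limma adjusted p = 0.519). Krtap24-1, of the keratin-associated family, had an interaction against clp of 2.97 ± 0.39 (limma adjusted p = 0.150). Krt27 differed by 6.36 with tpa, against -1.41 with clp and -3.31 with no named treatment. With no named treatment its log2 ratios were -7.23 (Eng+/-) and 1.43 (wt) at 90 d, against -0.20 (Eng+/-) and 1.01 (wt) at 50 d. The value of -3.31 thus averages genotype pairs of opposite sign and rests on the Eng+/- 90d array. Each treatment lay on its own slide, so treatment and slide cannot be told apart in these terms.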

How the data were processed

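RNA was measured on 12 Agilent 2-colour arrays, of which the 4 with tpa in the title are the subject. Per the file headers, the files deposited for each array give intensity values of both channels (foreground, background, processed) from Feature Extraction 10.7.3.1 (10.0 per the submitters' processing notes), with probe annotation on mm9, and the values deposited as 1 table are the authors' log10 ratio of processed Cy5 to Cy3, equal to that in the scanner files (largest difference 0). Median foreground and background intensities were corrected here by normexp (offset 50) and loess within each array in limma 3.58.1 under R 4.3.3. Outlier spots were left out. Probes had to be well above background in Cy5 on 2 or more of 12 arrays, and the brightest probe stood for a gene, which left 25087 features, 17167 of them with a RefSeq symbol.

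Values were fitted on the log2 scale with genotype and 6 conditions (5 residual degrees of freedom) and adjusted by Benjamini-Hochberg over all features. Genotype pairs the arrays. The 2-fold size is that of the series text, applied here to both genotype pairs as a description. The fit was tested on simulated data. The number of arrays limits the precision, and nothing states that they came from separate animals or cultures, so p-values measure only the spread between these arrays.

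The members, the 30 gene lists (616 genes) and the tests were chosen with earlier results of these data known. Named genes were the 15 largest each way among those 2-fold in both pairs, ranked by the smaller pair difference, since none passed the adjusted p (with 1 symbol, Cy5 above background on both arrays of the higher day and not saturated on all 4 tpa arrays); up to 4 members of each list with the largest difference and the same sign in both pairs, and its first member; Eng; and the 5 smallest p of each interaction. Not every gene picked by this rule is described. Krt72, Tchh, Krt84, Prdm1, Ptch1, Oca2, Mitf, Sox10, Kit, Krt16, S100a9, Krt14 and Cxcl10 were named after their values were seen. Promoter sequences are from RefSeq (GRCm38.p6, first listed start of a gene). Alternatives were the authors' processed signals, median centring, Cy5 alone, offset 16, other filters, the mean of a gene's probes, the 4 tpa arrays alone, no genotype term, other fold thresholds, and each array left out.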

Additional observations from a re-analysis of the deposited data

Results flagged for a closer look

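For 16 gene lists the median 90 d minus 50 d difference had one sign in both genotype pairs with tpa and the opposite sign in both pairs of another treatment. Each pair is 1 array minus 1 array, the difference was not tested, and each treatment has a slide of its own, so these cannot be told apart.

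The hair lists ran opposite to clp. The hair shaft keratins had medians of 2.682 (Eng+/-) and 5.014 (wt) with tpa, against -2.192 (Eng+/-) and -0.376 (wt) with clp. The keratin-associated proteins had 3.092 (Eng+/-) and 6.17 (wt) with tpa, against -2.479 (Eng+/-) and -0.392 (wt) with clp, and the inner root sheath genes 3.376 (Eng+/-) and 4.945 (wt) with tpa, against -2.106 (Eng+/-) and -0.2 (wt) with clp. Hair matrix regulators had 0.996 (Eng+/-) and 1.163 (wt) with tpa, against -1.084 (Eng+/-) and -0.196 (wt) with clp. Melanocyte genes had 1.523 (Eng+/-) and 2.343 (wt) with tpa, against -0.686 (Eng+/-) and -0.682 (wt) with clp, and cell cycle genes 0.537 (Eng+/-) and 0.61 (wt) with tpa, against -0.34 (Eng+/-) and -0.298 (wt) with clp.

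Immune lists ran the other way. Interferon response genes had -0.783 (Eng+/-) and -0.247 (wt) with tpa, against 0.374 (Eng+/-) and 0.779 (wt) with clp and 0.169 (Eng+/-) and 0.73 (wt) with no named treatment. Langerhans and dendritic cell genes had -0.12 (Eng+/-) and -0.355 (wt) with tpa, against 0.417 (Eng+/-) and 0.663 (wt) with clp and 0.473 (Eng+/-) and 0.003 (wt) with no named treatment. T cell genes had -0.204 (Eng+/-) and -0.185 (wt) with tpa, against 0.306 (Eng+/-) and 0.386 (wt) with clp. Macrophage and neutrophil genes had -0.187 (Eng+/-) and -0.32 (wt) with tpa, against 0.389 (Eng+/-) and 0.326 (wt) with no named treatment.

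Stress keratins and alarm genes had 0.692 (Eng+/-) and 0.542 (wt) with tpa, against -1.151 (Eng+/-) and -0.817 (wt) with no named treatment. Smaller opposite signs were seen in 5 more lists. Dermal papilla genes had 0.207 (Eng+/-) and 0.057 (wt) with tpa, against -0.18 (Eng+/-) and -0.188 (wt) with clp and -0.116 (Eng+/-) and -0.208 (wt) with no named treatment. Endothelial genes had -0.005 (Eng+/-) and -0.197 (wt) with tpa, against 0.04 (Eng+/-) and 0.163 (wt) with clp, and adipocyte genes -0.022 (Eng+/-) and -0.376 (wt) with tpa, against 0.043 (Eng+/-) and 0.446 (wt) with clp. Sebaceous gland genes had 0.288 (Eng+/-) and 0.103 (wt) with tpa, against -0.125 (Eng+/-) and -0.759 (wt) with no named treatment, and circadian clock genes 0.298 (Eng+/-) and 0.049 (wt) with tpa, against -0.177 (Eng+/-) and -0.529 (wt) with no named treatment.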

How the results depend on the processing

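No list median given below changed sign, and of 1966 values of 94 genes under the alternatives, 1957 kept their sign. The cause of the changes below was not tested, apart from thresholds and fewer arrays. The tpa arrays alone gave 406 calls, leaving out both 90d arrays of no named treatment gave 20, and the authors' processed signals gave 2 for the difference from no named treatment. Leaving out 1 array gave 0 to 22 calls for the day difference, 0 to 287 against no named treatment and 0 to 38 against clp. Without the genotype term that pairs the arrays (no replicate block) the count was 0, with 1002 at an unadjusted p under 0.05. The count of features 2-fold higher in both pairs was 476 with processed signals, 656 at 1.5-fold and 156 at 3-fold, and of those lower 159 with processed signals, 35 under median centring, 38 with Cy5 alone, 9 with offset 16, 99 at 1.5-fold and 0 at 3-fold. Leaving out a tpa array leaves 1 pair, so the rule on both pairs has no value then. In single pairs 2.63% (Eng+/-) and 2.16% (wt) of all features were 2-fold higher and 0.427% (Eng+/-) and 0.171% (wt) lower. With the pairs crossed, chosen after seeing the data because Eng went against the labels at 50 d, the counts were 279 higher and 3 lower, and without saturated probes, also chosen then, 203 and 3. Median centring moved the median of all features by -0.11, and the following are not corrected for it. With processed signals the median was 1.40 for hair matrix regulators, 3.01 for melanocytes, 0.51 for cell cycle and 0.71 for Hedgehog genes. Under median centring it was 1.44 for hair matrix regulators, -0.57 for macrophages and 0.73 for Hedgehog genes. With Cy5 alone it was 1.42 for hair matrix regulators, 0.85 for stress genes, -0.44 for macrophages and 0.53 for Hedgehog genes, and with offset 16 it was 1.16, 2.53 and 0.54 for hair matrix regulators, melanocytes and Hedgehog genes. With 1 array left out medians ran from 2.93 (without tpa wt 50d) to 6.38 for keratin-associated proteins, 2.52 to 4.82 for shaft keratins, 1.46 to 2.42 for melanocytes, -0.75 to -0.31 (without tpa Eng+/- 50d) for interferon genes, 2.91 (without tpa wt 50d) to 5.54 for the inner root sheath, 0.72 to 1.31 for hair matrix regulators, 0.41 to 0.76 for cell cycle, 0.53 to 0.72 for stress genes, -0.40 to -0.21 for macrophages and 0.29 to 0.46 for Hedgehog genes. Signs turned for Mitf (-0.0183 under median centring, -0.0326 with Cy5 alone), Krt5 (-0.19 under median centring, -0.0382 with the mean of its probes), Sox10 (-0.18 with Cy5 alone) and Krt14 (-0.32 with Cy5 alone). With 1 array left out, Krt14 ran from -0.0458 (without tpa wt 90d) to 0.67, Ptch1 from -0.0154 (without tpa Eng+/- 90d) to 0.66 and Krt72 from -0.41 (without tpa wt 50d) to 1.10. Saturation at 90 d and the offset of 50 lower the differences of bright hair genes, and lower Cy3 signals at 90 d raise them.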
